A study of Mus musculus with 6 samples.

Results

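*Runx1*, *Runx2*, *Runx3*, *Sp7*, *Dlx3*, *Dlx5*, *Dlx6*, *Msx1* and *Msx2* encode transcription factors of the osteoblast lineage, and their expression was followed in osteoblasts (OBs) taken from ectopic bone on day 10 and day 14 of its formation. The members are defined by their gene symbols, and all 9 are among the 23284 genes listed for each sample. Bone was induced under the skin of the back of male *Col2.3*-ECFP mice aged 12 to 16 weeks by a collagen sponge that carried 2.5 μg of rhBMP-2. In these mice a type I collagen promoter drives the cyan fluorescent protein ECFP in OBs, so the cells were selected by a promoter that becomes active as OBs differentiate. ECFP+ cells that were negative for CD45, the general marker of blood cells, and for 7AAD, a stain of dead cells, were sorted and profiled by RNA-seq, with 3 samples of day 10 and 3 of day 14. The samples of the 2 groups share the sponge, the BMP-2 and the reporter, and no sample without BMP-2 was analysed here. Collagenase was applied 1 time to day 10 bone and 2 times to day 14 bone, and the effects of digestion and of day cannot be told apart. The labels call the samples biological replicates, and the sources do not state how many mice each one holds. The titles place all of the later samples on day 14, whereas their free-text descriptions give day 14, day 15 and day 16 for replicates 1, 2 and 3.

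RUNX proteins bind DNA through the runt domain together with their partner CBFβ. RUNX2 is required for the commitment of mesenchymal cells to the OB lineage, and SP7, also called osterix, acts downstream of it and is required for the step from preosteoblast to OB. DLX3, DLX5 and DLX6 are homeodomain proteins induced by BMP signalling that promote OB differentiation, whereas MSX1 and MSX2 are homeodomain proteins that can repress DLX-dependent transcription and are best known from the skull, teeth and limbs. RUNX1 is the family member of blood cells, and it is also expressed in skeletal progenitors and cartilage. RUNX3 is known from T cells, sensory neurons and cartilage.

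In the mouse genome (build mm10; GENCODE vM21 annotation), *Runx1* lies on the minus strand at chr16:92601466-92826149, *Runx2* on the minus strand at chr17:44495987-44814797 and *Runx3* on the plus strand at chr4:135120652-135177990. *Sp7* lies on the minus strand at chr15:102356606-102367182 and *Dlx3* on the plus strand at chr11:95120119-95125296. *Dlx5* (chr6:6877805-6882085, minus strand) and *Dlx6* (chr6:6863334-6868568, plus strand) are neighbours that lie 9236 bases apart. *Msx1* lies on the minus strand at chr5:37820485-37824583 and *Msx2* on the minus strand at chr13:53466884-53473074. The kit does not mark strand, so reads of a gene and of an antisense transcript that overlaps it cannot be told apart. This touches *Dlx6*, all 5235 bases of which are covered by *Dlx6os1*, and *Msx1*, which overlaps *Msx1as*. The antisense transcripts annotated within *Runx2* (*Runx2os1*, *Runx2os2* and *Runx2os3*) are not listed in the files.

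The RUNX genes share a stretch of sequence at their distal promoters, shown here because the members of this family are compared with each other throughout. RefSeq promoter sequences (build GRCm38.p6), which span 250 bases before to 50 bases after a transcription start, were matched for 5 of the 9 members, namely *Runx1*, *Runx2*, *Runx3*, *Msx1* and *Msx2*, with 7 promoters between them. *Sp7*, *Dlx3*, *Dlx5* and *Dlx6* had no entry. The capitals below mark an 18-base run that is identical in the 3 RUNX genes and holds the RUNX core ACCACA 2 times. The windows of 30 bases are written 5′ to 3′ on the strand of the gene.
*Runx1*: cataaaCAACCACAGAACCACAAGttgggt
*Runx2*: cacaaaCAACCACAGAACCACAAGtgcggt
*Runx3*: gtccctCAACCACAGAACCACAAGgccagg
These windows lie at chr16:92826025-92826054 (minus strand, the run beginning 27 bases after the start), chr17:44814583-44814612 (minus strand, 22 bases after the start) and chr4:135120503-135120532 (plus strand, 136 bases before the start). The run was found on either strand in 4 of 32851 promoters, and the other one, that of *Gm16225*, overlaps the *Runx3* promoter on the opposite strand. The core, searched as ACCACA and as its reverse complement TGTGGT, is present in 16.8% of all promoters of this length and is present 2 or more times in 1.81%. These are matches of letters and not sites of binding.

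A further core match in *Runx2* and the homeodomain core TAATT in *Msx2* are shown because *Runx2* is the yardstick of the ratios given further on and because *Msx2* had the widest spread of the members on day 14. Capitals mark the matches.
*Runx2*: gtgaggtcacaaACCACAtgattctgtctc
*Msx2*: gctcctgTAATTAactccTAATTtatttca
The *Runx2* window lies at chr17:44814690-44814719 on the minus strand, with the match beginning 80 bases before the start. The *Msx2* window lies at chr13:53472945-53472974 on the minus strand and holds 3 matches to TAATT or its reverse complement AATTA, of which 2 overlap as TAATTA. In *Msx1*, no match to TAATT was found in the 250 bases before the start, a stretch in which 25.0% of all promoters have one. The files hold 1 value per gene, so use of the distal and the proximal promoters of *Runx1* and *Runx3* could not be separated.

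Expression was read as FPKM, a read count divided by transcript length and by the mapped reads of the sample, which allows levels of different genes to be set side by side. The depth was estimated from the steps of the low values at 4556374 to 7788030 mapped reads per sample. At these depths, 3 reads on a transcript of 1000 bases correspond to 0.385 to 0.658 FPKM, the floor used here, which covers counting error only. *Col1a1*, the main collagen gene of bone, had 14151 to 34157 FPKM in the 6 samples. The cells were sorted by a type I collagen promoter, so this level is no separate check of their identity. *Ibsp*, a sialoprotein of mineralising matrix, had 1293 to 25254 FPKM. Neither level shows how many cells of other types a sample holds. Within day 14, replicate 2 stood apart. In day 14 replicate 2, the summed FPKM of 11 chondrocyte markers was 2421, against 232 and 174 in replicates 1 and 3 and 774 to 1612 on day 10, and all 16 chondrocyte and hypertrophic chondrocyte markers listed had their highest day 14 value in it. The same library had the lowest sum of 16 haematopoietic markers, 24.8 FPKM, against 353 and 817 in the other day 14 samples and 51.1 to 202 on day 10. Of the chondrocyte markers, *Col2a1* was 373, 321 and 189 FPKM on day 10 and 12.1, 688 and 8.75 FPKM on day 14. Of the haematopoietic markers, *Lyz2* was 18.5, 71.9 and 83.3 FPKM on day 10 and 160, 6.35 and 454 FPKM on day 14. Day 14 replicates 1 and 3 were outside the day 10 range as well, below it in the chondrocyte sum and above it in the haematopoietic sum. Results that rest on day 14 replicate 2 are therefore given with and without it. Fits without it compare day 10 with replicates 1 and 3 alone, which differ from day 10 in these sums.

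On day 10, *Sp7* was the highest of the 9 members in every sample. *Runx1*, *Runx2*, *Dlx3* and *Dlx5* followed, and neighbours in this order overlapped between samples. *Msx1*, *Runx3*, *Msx2* and *Dlx6* were lower, and each of these was separated from the gene before it in the order. By mean FPKM among all genes listed, *Sp7* ranked 1026 on day 10 and 3642 on day 14, *Dlx3* went from rank 4744 to 9864, and *Runx1* from 2464 to 2010. On day 14, *Runx1* had the highest mean, followed by *Sp7*, *Runx2*, *Msx1*, *Dlx5*, *Runx3*, *Dlx3*, *Msx2* and *Dlx6*. All neighbours in the day 14 order overlapped between samples.

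**Figure D1:**
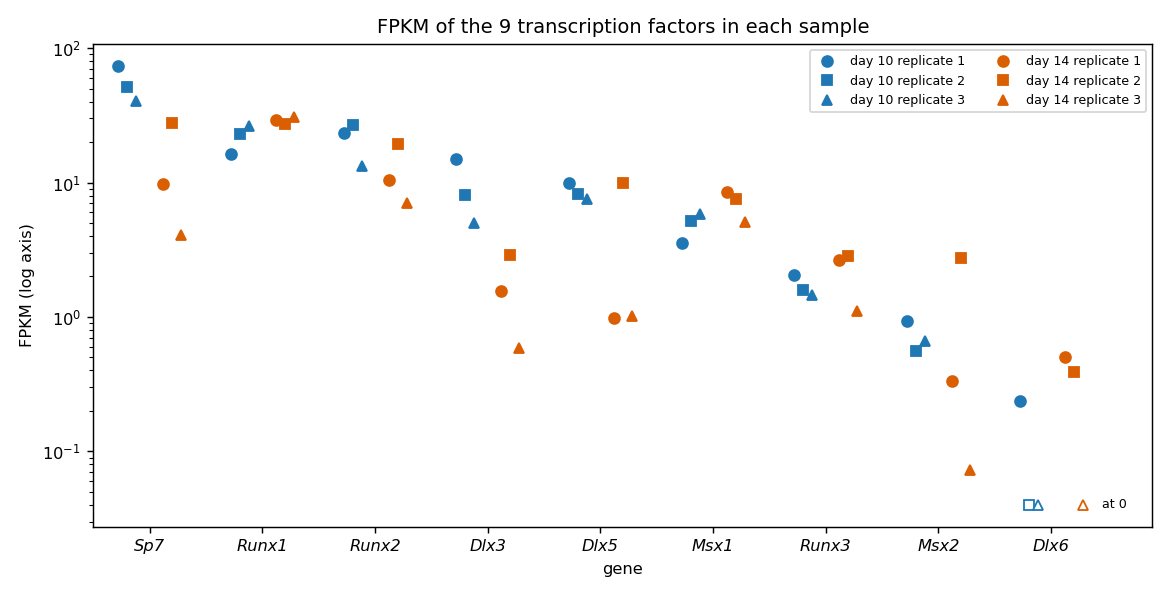
FPKM (log axis) of the 9 transcription factors in each of the 6 samples, with colour for the day, marker shape for the replicate and open markers for values of 0. The day 14 values of *Sp7* and *Dlx3* lie below all of their day 10 values, those of *Runx1* lie above, and *Dlx5* and *Msx2* have 1 high day 14 value, in replicate 2.

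The comparison of the days was made by limma on log2(FPKM + 0.1) over 19526 genes, with p-values adjusted over all of them. None of the 9 members reached an adjusted p under 0.05 (0 with an ordinary linear model as well), and 0.0154% of all genes tested did, namely 3 genes that were higher on day 14. At an unadjusted p under 0.05, 3 members (*Sp7*, *Dlx3* and *Dlx5*) and 10.0% of all genes passed. These 3 members also had a fold change over 2, all of them lower on day 14, against 3.83% of all genes by this rule (2.04% lower and 1.79% higher). The median log2 difference was −0.42 over the 9 members and −0.04 over all genes tested. When day 14 replicate 2 was left out, *Sp7* and *Dlx5* had an adjusted p under 0.05 from limma, both lower on day 14, and so did 0.386% of all genes tested (0.168% lower). The days then did not overlap for 6 members, of which *Sp7*, *Dlx3*, *Dlx5*, *Runx2* and *Msx2* were lower, as were 13.3% of all genes, and *Runx1* was higher, as were 15.4%.

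*Sp7*, the zinc finger factor of OB maturation, was 73.7, 51.1 and 40.1 FPKM on day 10 and 9.79, 27.9 and 4.09 FPKM on day 14. All 3 day 14 samples lay below all 3 day 10 samples, with replicate 2 the highest of its day. The mean went from 55.0 ± 17.1 to 13.9 ± 12.4 FPKM (SD, n = 3), which was 3.95-fold lower. The mean of the log2 values differed by −2.34 (SE 0.59; 95% interval −3.70 to −0.99; limma adjusted p = 0.309). On the FPKM + 0.1 scale this log2 difference was 5.08-fold. The log2 difference was −3.05 without day 14 replicate 2, with an adjusted p of 0.0329 from limma. In a bulk sample, fewer cells that express a gene and less RNA per cell cannot be told apart, and this holds for all values given here.

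*Dlx3*, a homeodomain gene of late OB differentiation, had the same order of the days. It was 14.9, 8.04 and 5.03 FPKM on day 10 and 1.55, 2.88 and 0.590 FPKM on day 14. The day 14 samples again lay below all day 10 samples, with means of 9.32 ± 5.06 and 1.67 ± 1.15 FPKM (SD, n = 3). The log2 difference was −2.51 (SE 0.57; 95% interval −3.81 to −1.21; limma adjusted p = 0.298), and −3.00 without day 14 replicate 2 (limma adjusted p = 0.0639). *Sp7* and *Dlx3* were the 2 members with a non-overlapping lower level on day 14, as were 6.67% of all genes tested. For both, an exact two-sided permutation test gave p = 0.1, which is the smallest p that 3 samples against 3 can give, so no single value could pass 0.05 by this test.

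*Dlx5*, the DLX gene induced early by BMP-2, was 9.88, 8.19 and 7.56 FPKM on day 10 and 0.979, 9.84 and 1.01 FPKM on day 14. The day 10 samples were close to each other, while day 14 was split between replicate 2, at the level of day 10, and the other 2 samples. Replicate 2 was 9.88 times the mean of replicates 1 and 3. Over all samples the log2 difference was −1.91 (SE 0.76; 95% interval −3.66 to −0.16; limma adjusted p = 0.460), and the exact permutation p was 0.3. Without replicate 2 it was −2.97 with an adjusted p of 0.0102 from limma. The unadjusted limma p of *Dlx5* was 0.0357 over all samples. It was 0.0647 to 0.153 when any sample other than day 14 replicate 2 was left out.

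*Dlx6*, the neighbour of *Dlx5*, was 0.236, 0 and 0 FPKM on day 10 and 0.507, 0.390 and 0 FPKM on day 14. All 6 values were under the floor, so that no fold is given. The antisense transcript *Dlx6os1*, listed in the files under its older name *Dlx6as1*, had 0.350 to 0.974 FPKM. Among the other DLX genes, *Dlx2* was 1.44, 1.52 and 1.53 FPKM on day 10 and 0.579, 1.86 and 0.0624 FPKM on day 14, with replicate 2 again the highest of its day.

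**Figure D2:**
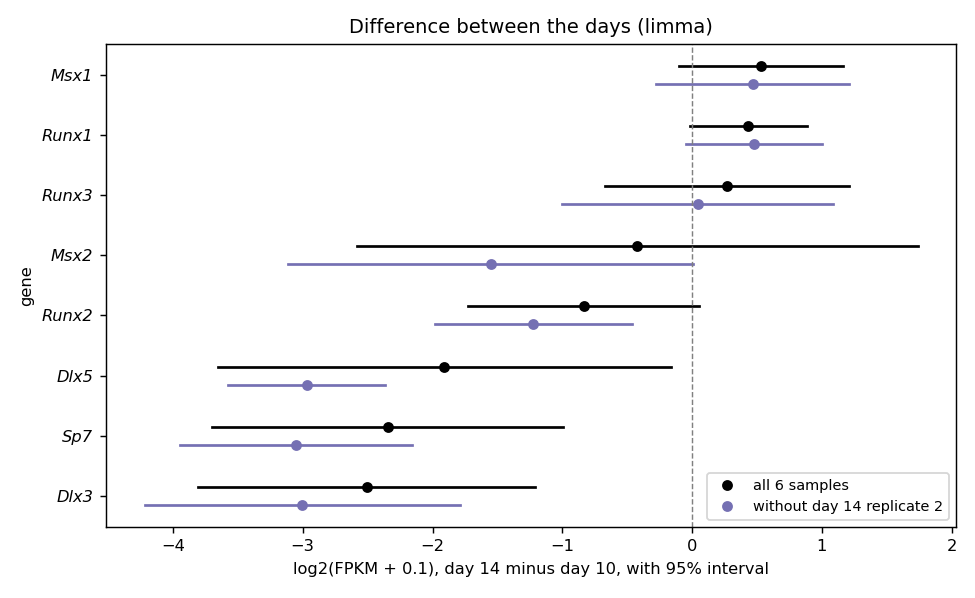
Difference between the days on the log2(FPKM + 0.1) scale with its 95% interval from limma for 8 of the 9 members, over all 6 samples (black) and without day 14 replicate 2 (purple). *Dlx6* is left out because all of its values are under the floor. Without that library the intervals of *Dlx5* and *Sp7* are narrower and lie further from 0.

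The RUNX genes differed from each other in the direction of their means. *Runx2*, the factor of OB commitment, was 23.3, 26.7 and 13.2 FPKM on day 10 and 10.5, 19.4 and 7.00 FPKM on day 14, and the days overlapped. Its log2 difference was −0.83 (SE 0.39; 95% interval −1.72 to 0.05; limma adjusted p = 0.528; exact permutation p = 0.2). The difference was −1.22 without day 14 replicate 2 (limma adjusted p = 0.164).

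*Runx1* was 16.3, 23.1 and 26.5 FPKM on day 10 and 29.3, 27.5 and 30.7 FPKM on day 14. Its lowest day 14 value exceeded its highest day 10 value, as for 7.59% of all genes tested (14.3% in either direction), and the day 14 samples were close to each other (29.2 ± 1.63 FPKM, SD, n = 3). The log2 difference was 0.43 (SE 0.20; limma adjusted p = 0.517; exact permutation p = 0.1). It was 0.23 without day 10 replicate 1, the lowest sample, and 0.30 with the FPKM scaled by their upper quartile, a scaling under which the days overlapped for *Runx1* and remained apart for *Sp7* and *Dlx3*. *Runx1* is abundant in blood cells, whose markers also differed between samples, and their part in its values was not tested. *Ptprc*, which encodes CD45, was 0.259 to 0.721 FPKM on day 10 and 2.99, 0.134 and 2.81 FPKM on day 14.

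*Runx3* was lower, with 2.05, 1.58 and 1.46 FPKM on day 10 and 2.67, 2.84 and 1.11 FPKM on day 14. The days overlapped and the log2 difference was 0.27 (limma adjusted p = 0.889). This difference was 0.04 without day 14 replicate 2 and 0.68 without day 14 replicate 3. T and NK cells, in which *Runx3* is known to be expressed, had a summed marker level of 3.87 to 4.68 FPKM on day 10 and 13.4, 3.69 and 17.4 FPKM on day 14. The part of these cells in the values of *Runx3* was not tested.

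Summed over the 3 genes, RUNX expression was 41.6, 51.3 and 41.2 FPKM on day 10 and 42.5, 49.7 and 38.8 FPKM on day 14 (44.7 ± 5.74 and 43.7 ± 5.52 FPKM, SD, n = 3; exact permutation p = 0.7), and the days overlapped. Within this sum, *Runx1* made up 39.2, 45.0 and 64.4% on day 10 and 68.9, 55.3 and 79.1% on day 14. *Runx2* made up 55.8, 51.9 and 32.1% on day 10 and 24.8, 39.0 and 18.0% on day 14. *Runx2* was thus the larger part in 2 of 3 day 10 samples and *Runx1* in the other 4 samples, although the shares of the days overlapped (exact permutation p = 0.2 for either gene).

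**Figure D3:**
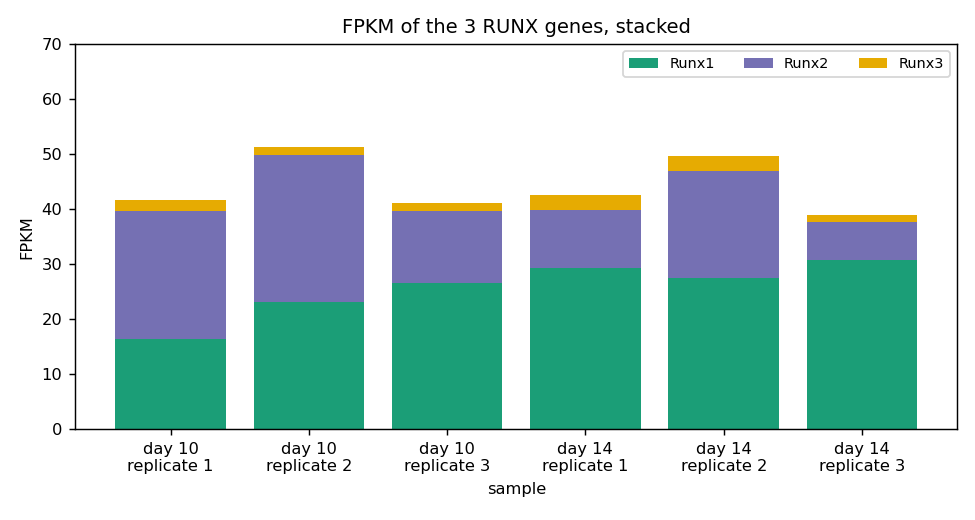
FPKM of *Runx1*, *Runx2* and *Runx3* stacked in each of the 6 samples on a linear axis from 0. The summed height stays between 38.8 and 51.3 FPKM while the part of *Runx1* is larger than that of *Runx2* in day 10 replicate 3 and in all day 14 samples.

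*Cbfb*, which encodes the partner of all RUNX proteins, was 40.1, 37.5 and 38.2 FPKM on day 10 and 33.2, 49.9 and 39.4 FPKM on day 14 (log2 difference 0.06; limma adjusted p = 0.953). Of 18 RUNX partners and cofactors, none passed a fold change over 2 with an unadjusted p under 0.05, 3 were non-overlapping and higher (7.59% of all genes), 2 were non-overlapping and lower (6.67% of all genes), and their median log2 difference was 0.07.

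*Msx1* was 3.55, 5.17 and 5.81 FPKM on day 10 and 8.53, 7.55 and 5.09 FPKM on day 14. The days overlapped, and the log2 difference was 0.53 (SE 0.28; limma adjusted p = 0.582). *Msx2* was 0.940, 0.558 and 0.657 FPKM on day 10 and 0.336, 2.76 and 0.0724 FPKM on day 14. Replicate 2 was 13.5 times the mean of the other day 14 samples, and 2 of the 6 values were under the floor. No direction can be given for *Msx2*, since its log2 difference was −0.42 in the fit over all samples (limma adjusted p = 0.934), −1.55 without day 14 replicate 2, 0.48 without day 14 replicate 3 and 0.56 as the ratio of arithmetic means.

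Day 14 replicate 2 was the highest sample of its day for 6 of the 9 members, as for 28.1% of all genes tested. For *Dlx5* and *Msx2* it stood furthest from the others. *Acan*, the main proteoglycan of cartilage, was 25.9, 20.8 and 20.3 FPKM on day 10 and 2.39, 45.8 and 3.28 FPKM on day 14. *Col10a1*, the collagen of hypertrophic cartilage, was 14.3, 26.1 and 13.8 FPKM on day 10 and 2.99, 67.4 and 0.194 FPKM on day 14. Both had the split of day 14 seen for *Dlx5* and *Msx2*, which are also expressed in cartilage, and the part of cartilage cells in the values of these members was not tested.

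**Figure D4:**
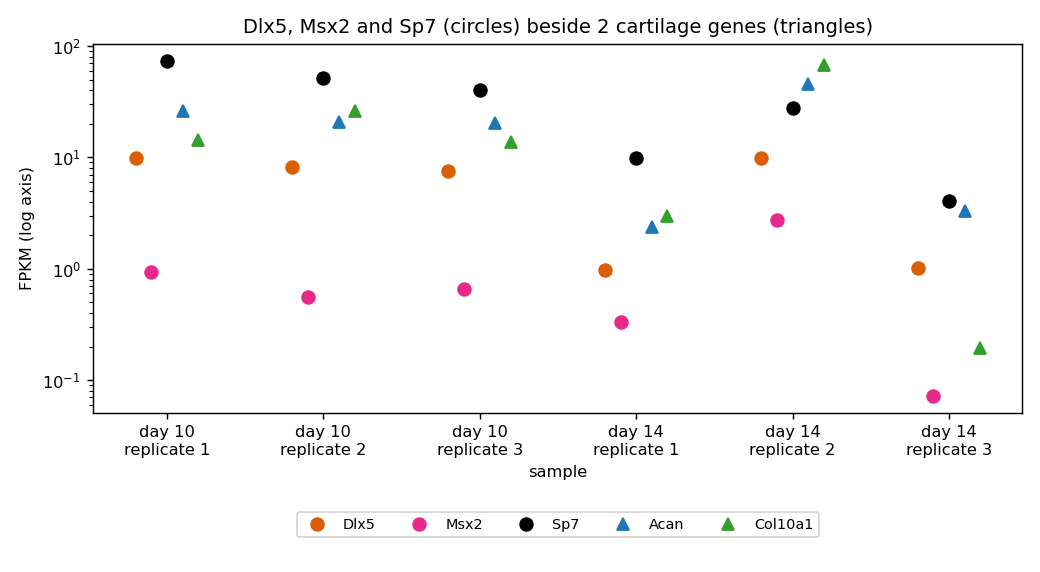
FPKM (log axis) of *Dlx5*, *Msx2* and *Sp7* (circles) and of the cartilage genes *Acan* and *Col10a1* (triangles) in each of the 6 samples. In day 14 replicate 2, *Msx2*, *Acan* and *Col10a1* are above all of their day 10 values and *Dlx5* is within its day 10 range, whereas *Sp7*, at 27.9 FPKM, is below all of its day 10 values.

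The members were next set against *Runx2* of the same sample, a ratio that does not depend on scaling between samples. The ratio of *Sp7* to *Runx2* in FPKM was 3.17, 1.92 and 3.03 on day 10 and 0.930, 1.44 and 0.584 on day 14. *Sp7* was thus above *Runx2* in every day 10 sample and below it in 2 of 3 day 14 samples. On the log2 scale the ratio went from 1.40 ± 0.40 to −0.11 ± 0.64 (SD, n = 3), a difference of −1.51. The log2 ratio of *Dlx3* to *Runx2* went from −1.24 ± 0.55 to −2.92 ± 0.38 (SD, n = 3), a difference of −1.67. In both cases the days did not overlap, and the same was found for 9.51% of all genes (0.645% with a lower ratio and 8.87% with a higher one). Of 8 ratios tested, that of *Runx3* was the other one without overlap, in the higher direction (difference 1.10). The exact permutation p was 0.1 for these 3 ratios and 0.2 to 0.9 for the other 5. With day 14 replicate 2 left out, the ratios of *Sp7*, *Dlx3* and *Dlx5* were lower without overlap, as for 1.02% of all genes, those of *Runx1*, *Runx3* and *Msx1* were higher, as for 58.9%, and the differences were −1.83 for *Sp7* and −1.78 for *Dlx3*.

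A second yardstick was the mean log2(FPKM + 0.1) of 20 matrix and mineralisation genes of OBs with known dependence on RUNX2 or SP7, among them *Col1a1* and *Ibsp*. This mean was 9.10, 9.27 and 8.28 on day 10 and 7.90, 8.89 and 7.11 on day 14 (difference −0.92; exact permutation p = 0.2). *Runx2* followed it closely. Its log2 level minus the matrix mean was −4.56, −4.53 and −4.54 on day 10 and −4.49, −4.61 and −4.28 on day 14, a difference of 0.08 (exact permutation p = 0.6).

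The SD of this relative level over the 6 samples was 0.116 for *Runx2*, the second lowest of 11142 genes with a mean of at least 1 FPKM outside the matrix list, whose median SD was 0.891. Its log2 level without the yardstick had an SD of 0.733. When day 14 replicate 2 was left out, the SD was 0.115 and the rank 3. This ranking was made after the values were seen, the 20 genes had been chosen for known dependence on RUNX2 or SP7, and it is a description over 6 samples. The individual matrix genes varied more against *Runx2* than their mean did. The SD of the log2 ratio to *Runx2* was 0.311 for *Omd*, 0.312 for *Col1a1*, 0.330 for *Spp1* and 0.338 for *Vdr*, which were named as the lowest, and 1.43 for *Col5a3*, the highest.

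Relative to the matrix genes of the same sample, *Sp7* and *Dlx3* were lower on day 14 than on day 10. Since *Runx2* followed the matrix mean closely, these levels nearly repeat the ratios to *Runx2* and are not separate evidence. The relative level of *Sp7* was −2.90, −3.59 and −2.95 on day 10 and −4.59, −4.09 and −5.04 on day 14, without overlap (difference −1.43; exact permutation p = 0.1). That of *Dlx3* was −5.20, −6.25 and −5.92 on day 10 and −7.17, −7.32 and −7.64 on day 14, also without overlap (difference −1.59; exact permutation p = 0.1). On this yardstick the days did not overlap for 8.27% of all genes tested, and 0.512% were lower. *Runx3* (difference 1.19) was higher without overlap, as were 7.76% of all genes. *Dlx6* was also placed there, but its values were under the floor and the days overlapped with a pseudocount of 1 or 0.01 (exact permutation p = 0.2), so nothing is read from it. In the 5 samples other than day 14 replicate 2, *Dlx5* joined *Sp7* and *Dlx3* as lower without overlap, against 0.804% of all genes, and *Runx1*, *Runx2*, *Runx3* and *Msx1* were higher without overlap (*Dlx6*, under the floor, left aside), against 64.6% of all genes.

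**Figure D5:**
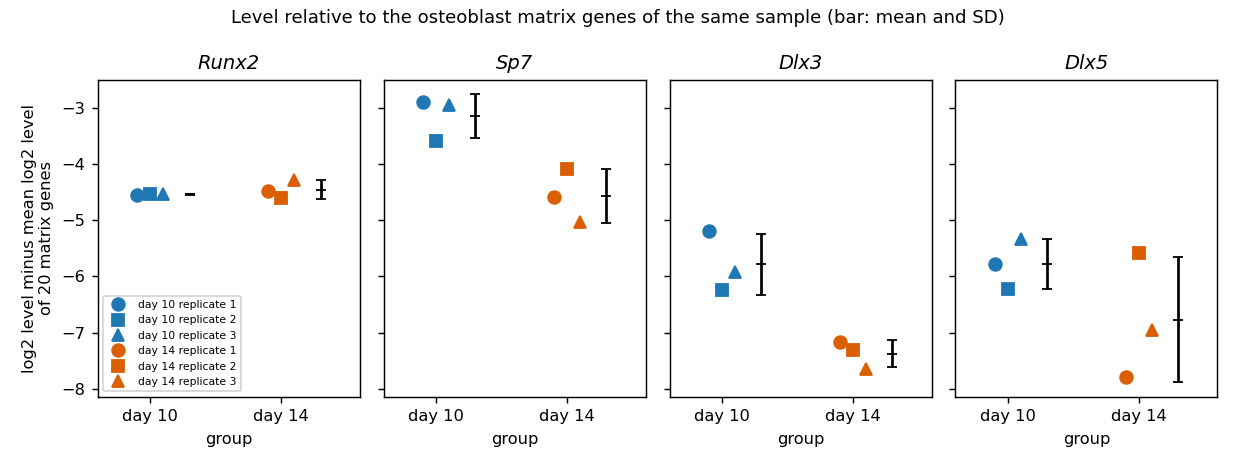
Log2 level of *Runx2*, *Sp7*, *Dlx3* and *Dlx5* minus the mean log2 level of 20 OB matrix genes of the same sample, by day, with the mean and SD (n = 3) as bars. *Runx2* stays between −4.61 and −4.28 in all samples, whereas *Sp7* and *Dlx3* have day 14 values below all of their day 10 values.

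For *Runx2*, *Sp7* and *Dlx5*, the genes with the most similar profile over the 6 samples were identified among 11162 genes with a mean of at least 1 FPKM, by the root mean square difference of the centred log2 values. This measure counts the size of a change as well as its shape, and its ranks are not mutual. Closest to *Runx2* were *Ube2ql1* (0.0816), *Abca7* (0.0877), *Slc22a17* (0.124), *Pard6g* (0.133) and *Bcar3* (0.138). The nearest of the other members, *Runx3*, ranked 3734, so no member was close to *Runx2* by this measure. Closest to *Sp7* were *Grrp1* (0.184), *Crispld1* (0.190), *Tcf7* (0.196), *Slc8a3* (0.221) and *Bambi* (0.230). *Dlx3* ranked 10 (0.30), *Dlx5* ranked 92 and *Runx2* ranked 251 in likeness to *Sp7*. *Tcf7* is a transcription factor of WNT signalling and *Bambi* a pseudoreceptor that dampens BMP and TGF-β signalling. Closest to *Dlx5* were *Leprel1* (0.200), *Chac1* (0.286), *Col9a2* (0.315), *Acan* (0.327) and *Adamts18* (0.356), of which *Col9a2* and *Acan* encode cartilage matrix. Among the members, *Sp7* ranked 37, *Dlx3* ranked 144 and *Runx2* ranked 244 in likeness to *Dlx5*. The samples share depth and composition across all genes, so these values describe likeness of profile only.

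Other transcription factors of the lineage were read from a list of 33, of which 31 were tested. None had an adjusted p under 0.05 from limma. A fold change over 2 with an unadjusted p under 0.05 was found for 2 of them, both lower on day 14 (2.04% of all genes), while none was higher (1.79%), and the median log2 difference of the list was 0.03. *Tcf7* was 46.0, 28.4 and 18.5 FPKM on day 10 and 7.00, 17.3 and 2.51 FPKM on day 14 (log2 difference −2.08; limma adjusted p = 0.347). *Mef2c*, a MADS-box factor of OBs and osteocytes, was 55.7, 39.3 and 26.5 FPKM on day 10 and 15.1, 25.4 and 6.62 FPKM on day 14 (−1.49; limma adjusted p = 0.360). In both, as in *Sp7* and *Dlx3*, the days did not overlap and replicate 2 was the highest of its day. Of the 31 factors tested, 3 were non-overlapping and lower (6.67% of all genes) and 3 were non-overlapping and higher (7.59% of all genes).

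*Atf4*, a bZIP factor of late OB function, was in the other direction, at 88.5, 95.8 and 95.6 FPKM on day 10 and 101, 134 and 108 FPKM on day 14, without overlap (log2 difference 0.28; limma adjusted p = 0.607). Among the 20 matrix and mineralisation genes, 4 passed a fold change over 2 with an unadjusted p under 0.05, all lower on day 14 (2.04% of all genes), and the median log2 difference was −0.86. They were *Smpd3*, *Ifitm5*, *Phospho1* and *Phex*, which serve mineralisation. *Col1a1* was not among them (log2 difference −0.60; limma adjusted p = 0.839). Of 12 genes that respond to BMP signalling, 1 passed this rule (3.83% of all genes), *Bambi*, at 62.9, 44.3 and 27.6 FPKM on day 10 and 9.32, 26.5 and 4.83 FPKM on day 14 (log2 difference −1.99; limma adjusted p = 0.332). The list's median log2 difference was −0.31.

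Of 15 immediate early and heat shock genes that respond to cell dissociation, 4 passed the fold rule, all higher on day 14 (1.79% of all genes) and all coding for heat shock proteins (*Hsph1*, *Hspa1b*, *Dnajb1* and *Hspa1a*). They move with the day and the number of digestions together, and their part in the values of the members was not tested. Endothelial markers summed to 2.87 to 4.85 FPKM on day 10 and 6.01 to 11.1 FPKM on day 14, without overlap. Keratinocyte markers summed to 3.72 to 5.13 FPKM on day 10 and 1.55 to 4.05 FPKM on day 14. Sums of fibroblast and progenitor markers were 3047 to 4013 FPKM on day 10 and 4465 to 6200 FPKM on day 14, those of adipocyte markers 18.4 to 31.5 and 48.4 to 77.9 FPKM, and those of osteoclast markers 451 to 494 and 636 to 684 FPKM, each without overlap. Such sums rest on the most abundant genes. The median log2 differences were 0.92 for progenitor, 0.59 for adipocyte (4 of 8 markers tested) and −0.31 for osteoclast markers. Of both the progenitor and the osteoclast markers, 1 was non-overlapping and higher and 1 lower, and of the adipocyte markers 1 was higher (7.59% of all genes higher, 6.67% lower). Mural cell markers summed to 283 to 629 FPKM on day 10 and 387 to 492 FPKM on day 14. By the fold rule, 2 of 10 endothelial markers were higher on day 14 (1.79% of all genes) and none was lower. So were 1 of 4 adipocyte, 1 of 9 mural and 1 of 10 T and NK cell markers, with none lower. Of 11 progenitor markers, 2 were higher and 1 was lower, and no keratinocyte, osteoclast or haematopoietic marker passed. Osteocyte markers summed to 274 to 1086 FPKM on day 10 and 205 to 542 FPKM on day 14, and 3 of the 8 tested passed the fold rule, all lower on day 14 (2.04% of all genes), with a median log2 difference of −1.14. By the same rule 3 of 11 chondrocyte markers (*Col11a2*, *Col9a3* and *Col9a1*) were lower on day 14 and none was higher. So were 3 of 5 hypertrophic chondrocyte markers (*Panx3*, *Ihh* and *Pth1r*), with none higher. The days overlapped for every marker of both lists, with replicate 2 the highest of day 14. The median log2 differences of these lists were −1.61 and −2.05. The part of these cell types in the values of *Sp7*, *Dlx3* and the other members was not tested.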

How the data were processed

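RNA of sorted ECFP+ OBs was sequenced in 3 samples of day 10 and 3 of day 14. Single-end reads of 75 bases were aligned by the authors to the mm10 genome using TopHat2 2.0.13, Bowtie2 2.2.3 and SAMtools 0.1.19, and deposited FPKM per gene from Cufflinks 2.2.1; the annotation is not given in the sources used here. In 1 file, 25 symbols had been turned into dates and were restored by position; none is a member.

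The FPKM were used as deposited, with no rescaling. limma 3.58.1 (R 4.3.3, mean-variance trend) was run on log2(FPKM + 0.1) for 19526 genes with a mean FPKM above 0.1, with Benjamini-Hochberg adjustment over these genes, and was tested on simulated data. A pseudocount understates differences of low genes. Single values were compared by two-sided exact permutation tests. Mapped reads were estimated from the steps of low values of 1977 genes with 1 transcript of 1500 to 8000 bases, with a fragment length of 220 bases; 74.7 to 79.5% came out within 0.1 of a whole read. P-values from limma set the difference of the days against the spread between these samples. How many mice a sample holds is not stated, so this spread cannot be equated with that between animals.

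The members and lists were chosen with earlier results of these data known. Named are the 9 members, the 5 genes closest in profile to *Runx2*, *Sp7* and *Dlx5*, listed RUNX partners and transcription factors that passed a rule, antisense transcripts of members, and *Cbfb*, *Atf4*, *Col1a1*, *Ibsp*, *Col2a1* and *Lyz2*; others were named after their values were seen. One gene of the lists is not reported here and was left out of their counts. Alternatives were other pseudocounts, filters, scalings and variance models, a replicate block, and leaving out each sample.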

Additional observations from a re-analysis of the deposited data

How the results depend on the processing

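Without day 14 replicate 2, *Sp7* (−3.05) and *Dlx5* (−2.97) passed an adjusted p of 0.05 in limma. Over the samples left out in turn, the number of members that passed ranged from 0 to 2, of genes on the other lists from 0 to 11 and of all genes from 3 to 76 (3 with all samples, 6 with an ordinary linear model per gene). By the rule of a fold over 2 with an unadjusted p under 0.05, 748 genes passed with all samples, 363 with a pseudocount of 1, 476 at a mean of at least 1 FPKM, 460 with the ordinary linear model and 440 to 1594 with a sample left out; on the other lists 27 genes passed, 10 with the ordinary linear model and 14 to 70 with a sample left out. By this rule 3 members passed with all samples and 2 to 4 with a sample left out. Members with days that do not overlap numbered 3, 2 with upper quartile scaling (*Runx1* was lost) and 3 to 6 with a sample left out. The difference of *Msx2* turned to 0.035 with a pseudocount of 1 and to 0.56 as the ratio of arithmetic means, and ranged from −1.55 to 0.48 with a sample left out. The difference of its ratio to *Runx2* ranged from −0.33 to 0.97 and that of its level relative to the matrix genes from −0.17 to 0.96, the lower ends without day 14 replicate 2 and the upper ends without day 14 replicate 3. The difference of the relative level of *Runx2* ranged from −0.0050 without day 14 replicate 3 to 0.16 without day 14 replicate 2. The cause was not tested for any of these. All other members kept the direction of their log2 difference under every alternative that was run. Upper quartile scaling moved the median of all genes to −0.15.

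The labels number the replicates 1 to 3 on both days. Same-numbered samples had deviations correlated at 0.058, −0.006 and 0.089, and unlike-numbered ones at −0.098 to 0.020. All of these are near 0, and the numbers are not taken to pair the samples. With a replicate block, 2 genes passed an adjusted p of 0.05 and none of the members, with an adjusted p from limma of 0.170 for *Sp7* and 0.14 for *Dlx3*. For *Runx2* the unadjusted limma p was 0.0037 with the block and 0.0626 without it, and the adjusted p with the block was 0.217. Depth limits *Dlx6* and *Msx2*, and 3 samples a day limit every exact test to p = 0.1.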
